A study of Drosophila melanogaster with 6 samples.

Results

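The genes described here make up the switch that holds RNA polymerase II near the start of genes and lets it go: the 7SK RNA with its protein partners, the kinase P-TEFb, and the pausing factors DSIF and NELF. The set has 10 genes of the 17830 genes in the deposited table. They were chosen by name, as the rows listed as snRNA:7SK, Hexim, bin3, Cdk9, CycT, Spt5, Nelf-A, NELF-B, TH1 and Nelf-E, with earlier results of the same comparison in view; for snRNA:7SK its own level was known. Folds, adjusted p-values and counts of these genes are therefore descriptions and no independent evidence. All 10 passed the filter on low counts.

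RNA came from Drosophila S2 cells, a line derived from embryos with macrophage features, kept at 25 °C. One group of 3 libraries was from cells labelled as wild type under control RNA interference, and the other group of 3 from cells with Brr2 knocked down by RNA interference. Titles mark the agents with sh, although the protocol is one of 8 μg double-stranded RNA added to cells. It includes 30 min without serum, given for all 6 libraries. The sources used here do not give the control agent or the time until harvest. The study's design text asks how widely Brr2, the spliceosomal helicase that unwinds U4 from U6, acts on circular RNA, which counts per gene do not separate from linear RNA.

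Shortly after initiation, DSIF (Spt5 with Spt4) and NELF hold RNA polymerase II in a paused state that is common at fly developmental and heat shock genes. The kinase Cdk9, paired with its cyclin CycT, phosphorylates Spt5, NELF and the polymerase tail, and elongation begins. The 7SK RNA, bound by HEXIM, keeps part of this kinase inactive, and bin3, the fly relative of the human enzyme MePCE, caps the 5′ end of 7SK and stabilises it.

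Totals were 127654975 to 147620403 estimated counts per library. The Brr2 gene, listed as l(3)72Ab, was lower in every knockdown library (94.0 to 108.5 CPM, counts divided by library total and TMM factor) than in any control library (158.1 to 221.1 CPM), with 52.3% of the control level left (edgeR adjusted p = 0.0111). Of 8 hemocyte markers, srp and crq were found in all libraries at overlapping levels (84.3 to 116.2 and 183.5 to 345.0 CPM), and Hml, NimC1 and Sr-CI stayed at or below 1.29 CPM. Others moved with the group: Ppn ran from 269.4 to 390.9 CPM in control and 48.5 to 153.0 in knockdown libraries, Pxn from 7.14 to 11.10 and 0.843 to 1.64, and He from 0.165 to 0.473 and 1.73 to 3.89. The 8 summed to 575.0 to 775.7 CPM in control and 354.7 to 490.1 CPM in knockdown libraries. Of 8 markers of other cells, elav reached 32.0 CPM, Mef2 ran from 17.3 to 21.6 CPM in control and 11.5 to 13.5 in knockdown libraries, and nSyb, vas, nos, Mhc, Lsp2 and Fbp1 stayed at or below 0.883 CPM; these 8 summed to 48.2 to 51.6 and 34.7 to 39.2 CPM. The part of these shifts in the differences of the genes below was not tested.

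Cdk9 and TH1 were lower after Brr2 knockdown, and the other 8 genes did not pass the test. This was an edgeR quasi-likelihood test without a replicate block, with a Benjamini-Hochberg adjusted p of 0.05 over all 14167 tested features. Cdk9, the catalytic subunit of P-TEFb, was 2.07-fold lower. TH1, the NELF-D subunit of NELF, was 1.54-fold lower. In RNA from whole cultures, fewer cells with a transcript and less of it per cell cannot be told apart. Log2 fold changes of the 10 genes ran from -1.05 to 0.36 with a median of -0.49, beside a median of -0.02 over all 11590 tested genes. The 2 called genes make 20.0% of the set, near the 17.7% called among all tested genes (9.63% lower and 8.05% higher). Knockdown and control libraries did not overlap for 7 of the 10 genes, 5 lower and 2 higher, where 41.8% of all tested genes showed no overlap and 21.7% lay lower throughout. Since the set was chosen with this comparison known, nothing is read from these shares. Deviations from the group means correlated more for libraries with the same replicate number (0.16 to 0.317) than for the rest (-0.229 to 0.051). With that number as a block 4 of the 10 genes were called, Cdk9, TH1, CycT and bin3, all lower (25.6% of all genes). Total counts as sole scaling gave 6 (29%) and DESeq2 4 (28.8%), while upper quartile scaling gave 3 (17.6%), a minimum mean of 5 CPM 3 (25.4%) and scaling by the totals of genes other than 7SK and further small RNAs 2 (13.5%). Without knockdown replicate 2 the count was 4 (15.6%), and without control replicate 3 it was 2 (16%). Leaving out control replicate 1 or 2, or knockdown replicate 1 or 3, left 1, Cdk9. Over all features those fits called from 761 of 14858 to 1086 of 14903.

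**Figure D1:**
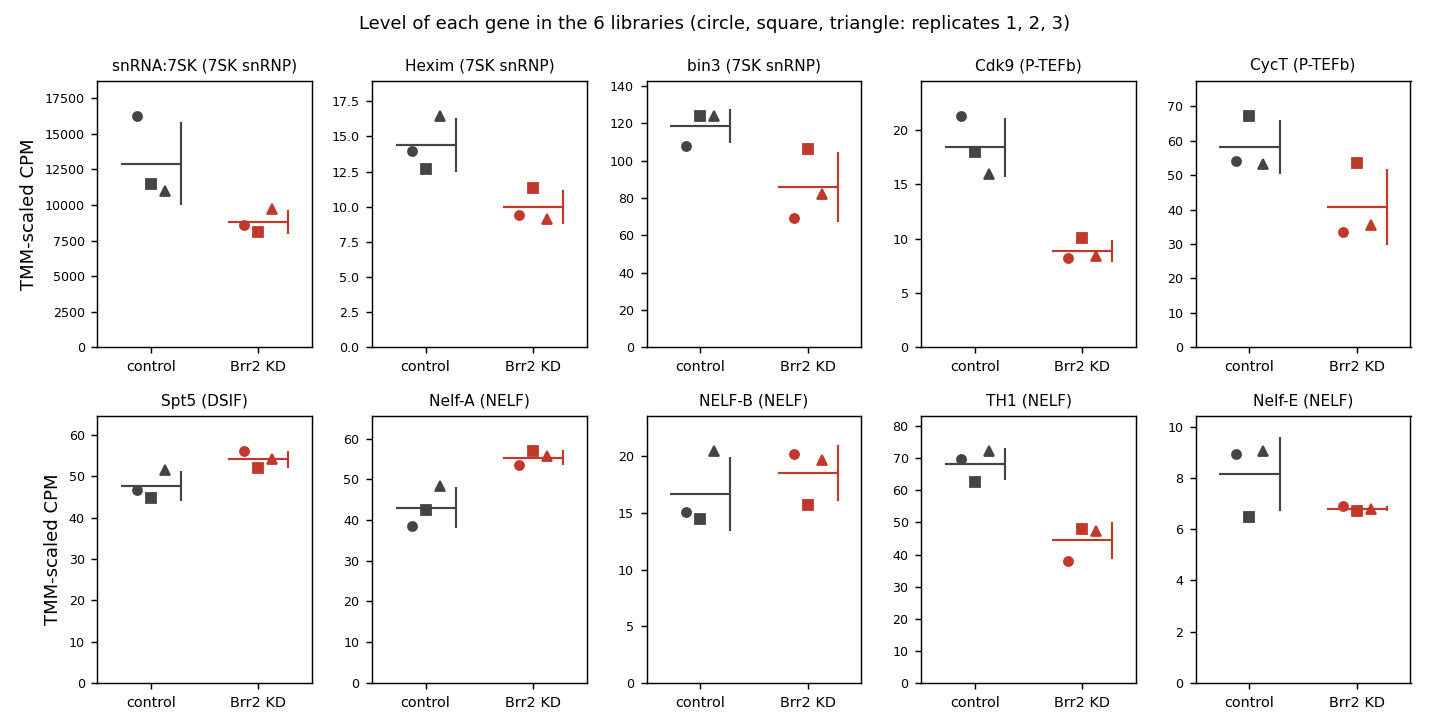
TMM-scaled CPM of each gene (vertical axes, starting at 0) in the 3 control libraries (grey) and the 3 Brr2 knockdown libraries (red); points are libraries, horizontal lines means and vertical lines 1 SD. The knockdown libraries of Cdk9, at 8.19 to 10.1 CPM, and of TH1, at 37.9 to 48.0 CPM, all lie below the control libraries, while those of Nelf-A, at 53.4 to 56.9 CPM, lie above them.

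The RNA scaffold itself, snRNA:7SK (FBgn0065099, named snRNA:7SKa in the Ensembl annotation; BDGP6.54, chromosome 3R, 7474553 to 7474996, minus strand, 1 exon of 444 bases), was by far the most abundant of the 10. It stood at 16248.5, 11443 and 10961 CPM in control replicates 1, 2 and 3. It stood at 8619, 8073 and 9744 CPM in knockdown replicates 1, 2 and 3. All knockdown libraries lay below all control libraries, and control replicate 1 stood well above the other controls. With a log2 fold change of -0.55 (SE 0.191), it did not pass the edgeR test (adjusted p = 0.0905). As a share of all counts in a library, 7SK held 1.43% ± 0.228 in control and 0.786% ± 0.0839 in knockdown libraries (SD, n = 3 each). Shares moved with the makeup of the libraries: protein-coding genes held 64.9% ± 4.29 and 48.5% ± 1.05, and features with transposon copy IDs 18.3% ± 1.84 and 29.4% ± 0.189. 7SK made up 94.3% to 98.1% of the counts of all genes annotated as snRNA. The U6 copy snRNA:U6:96Aa, of 107 bases, had at most 0.486 CPM in any library. The recovery of such shorter snRNAs relative to 7SK was not tested, so this share need not hold in the cells. Without control replicate 1 the log2 fold change of 7SK was -0.34 (edgeR adjusted p = 0.185). With scaling by total counts alone 7SK was called lower (-0.87, adjusted p = 0.00991). It was also called lower at nearly the same fold with the totals of genes other than 7SK and further small RNAs (-0.59, adjusted p = 0.0426) and by DESeq2, another test and scaling (-0.57, adjusted p = 0.0222). The annotation holds a further copy, snRNA:7SKb, which was not analysed here; the sources used here do not give how reads that match both copies were counted.

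Hexim, which inhibits P-TEFb when bound to 7SK (FBgn0038251; chromosome 3R, 14659438 to 14661177, plus strand), was measured at 14.0, 12.7 and 16.5 CPM in control replicates 1, 2 and 3 and at 9.42, 11.35 and 9.16 CPM in knockdown replicates 1, 2 and 3. The groups did not overlap. The log2 fold change was -0.53 (SE 0.163) and missed the threshold (edgeR adjusted p = 0.0656), and DESeq2 called it lower (adjusted p = 0.02).

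The gene of the capping enzyme bin3 (FBgn0263144; chromosome 2R, 6214568 to 6240602, plus strand) had 108.1, 124.1 and 124.1 CPM in control replicates 1, 2 and 3. It had 69.2, 106.2 and 82.4 CPM in knockdown replicates 1, 2 and 3, so knockdown replicate 2 came close to the lowest control. The log2 fold change of -0.47 (SE 0.175) did not pass (edgeR adjusted p = 0.108). With the replicate block it was called lower (-0.49, adjusted p = 0.0412), and also without knockdown replicate 2 (adjusted p = 0.0363). Further genes lie in bin3 introns, among them tomboy40 on the same strand, and share no exon bases with it. Set against each other within a library, the RNA and its partners differed little between groups: the log2 ratio of 7SK to Hexim averaged 9.79 ± 0.403 in control and 9.79 ± 0.293 in knockdown libraries, and that of 7SK to bin3 6.74 ± 0.426 and 6.70 ± 0.391 (SD, n = 3 each), with overlapping groups for both. With such a spread between libraries of a group, a small difference in these ratios would not be detectable.

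Cdk9 (FBgn0019949; chromosome 2R, 22636063 to 22637727, minus strand, 3 introns) showed the largest difference of the 10 genes. Its level was 21.3, 17.9 and 15.9 CPM in control replicates 1, 2 and 3 and 8.19, 10.07 and 8.39 CPM in knockdown replicates 1, 2 and 3. The highest knockdown library was well under the lowest control library. The mean fell from 18.4 ± 2.70 to 8.89 ± 1.03 CPM (SD, n = 3 each), with a log2 fold change of -1.05 (SE 0.166; edgeR adjusted p = 0.00994). It was called lower under all 15 other settings tried, with log2 fold changes from -1.37 to -0.92 and adjusted p of at most 0.0455. No other annotated gene overlaps Cdk9.

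Its cyclin CycT (FBgn0025455; chromosome 3L, 17551004 to 17557788, minus strand, 4 introns), which Cdk9 needs for activity, had 54.0, 67.2 and 53.2 CPM in control replicates 1, 2 and 3. It had 33.6, 53.5 and 35.4 CPM in knockdown replicates 1, 2 and 3. Knockdown replicate 2 fell inside the control range, and the other knockdown libraries lay below it. CycT was not called (log2 -0.51, SE 0.205; edgeR adjusted p = 0.128), but was called lower with the replicate block (-0.53, adjusted p = 0.0272) and without knockdown replicate 2 (-0.77, adjusted p = 0.0267).

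Ratios of genes within a library do not depend on how libraries are scaled. The log2 ratio of Cdk9 to CycT was -1.34, -1.91 and -1.74 in control replicates 1, 2 and 3 and -2.03, -2.41 and -2.08 in knockdown replicates 1, 2 and 3. The kinase was thus lower relative to its cyclin in every knockdown library, by 0.51 on average, though the nearest libraries were close (-1.91 and -2.03). The log2 ratio of Hexim, the inhibitor, to Cdk9 was 0.13 to 0.20 in knockdown libraries and -0.61 to 0.05 in control libraries. The log2 ratio of 7SK to Cdk9 was 9.44 ± 0.130 in control and 9.96 ± 0.277 in knockdown libraries (SD, n = 3 each), again without overlap. That of 7SK to CycT was 7.78 ± 0.418 in control and 7.78 ± 0.474 in knockdown libraries, and the groups overlapped. These ratios were not tested, since the genes were chosen with the comparison known. How often the groups separate for other gene pairs was not computed. Nothing is read from the lack of overlap, which 41.8% of all tested genes showed on plain CPM.

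**Figure D2:**
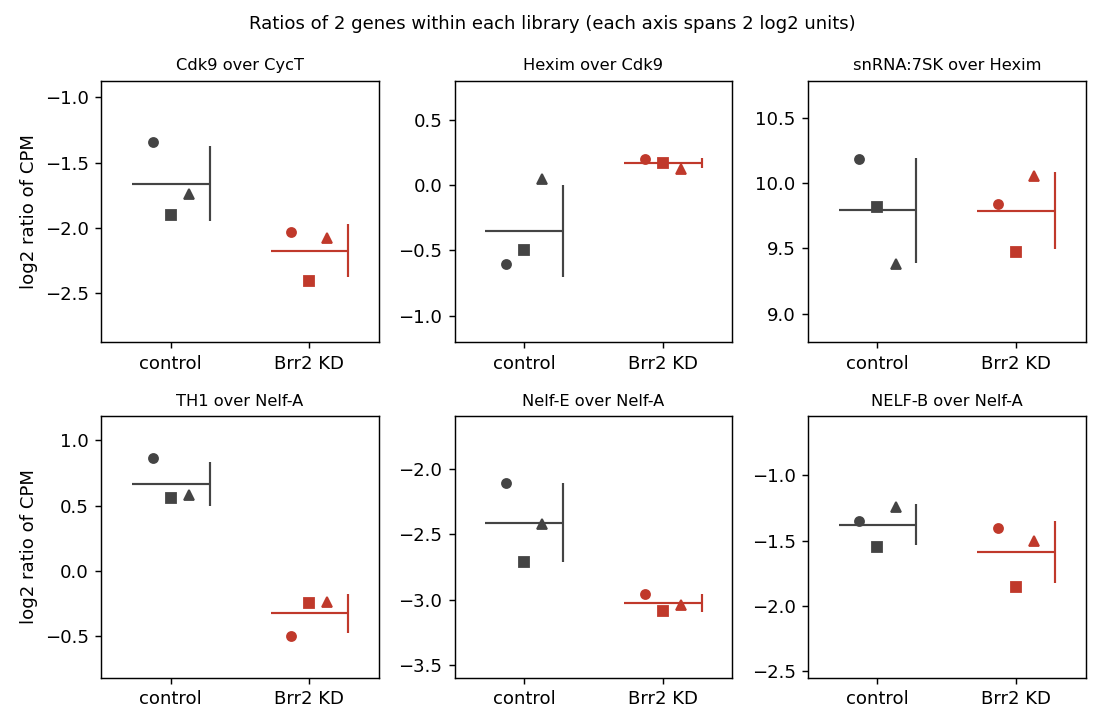
Log2 ratio of the CPM of a pair of genes within each library (vertical axes, each spanning the same range), for control (grey) and Brr2 knockdown libraries (red); points are libraries, horizontal lines means and vertical lines 1 SD. Cdk9 over CycT, TH1 over Nelf-A and Nelf-E over Nelf-A were lower in every knockdown library than in any control library, while 7SK over Hexim and NELF-B over Nelf-A overlapped.

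Spt5 (FBgn0040273; chromosome 2R, 19437483 to 19441898, plus strand, 11 introns), the large subunit of DSIF and a substrate of Cdk9, was not called. It was measured at 46.7, 44.7 and 51.6 CPM in control replicates 1, 2 and 3 and at 56.1, 52.1 and 54.1 CPM in knockdown replicates 1, 2 and 3. The knockdown libraries lay just above the control libraries. Its log2 fold change of 0.18 (SE 0.111; edgeR adjusted p = 0.290) became -0.16 when libraries were scaled by total counts alone (adjusted p = 0.484), so its direction was not settled. Its partner spt4 had a log2 fold change of -0.05 (SE 0.188; edgeR adjusted p = 0.879).

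Of the genes of the 4 NELF subunits only TH1 was called, and 2 log2 fold changes lay above 0 and 2 below. Differences between the subunits were not tested. TH1 (FBgn0010416; chromosome X, 16388820 to 16391438, minus strand, 4 introns), which in the human complex joins NELF-A to NELF-B, had 69.7, 62.5 and 72.2 CPM in control replicates 1, 2 and 3 and 37.9, 48.0 and 47.3 CPM in knockdown replicates 1, 2 and 3. The groups were clearly apart. The mean fell from 68.1 ± 5.07 to 44.4 ± 5.64 CPM (SD, n = 3 each), a log2 fold change of -0.62 (SE 0.137; edgeR adjusted p = 0.0247). The call was lost when any library but knockdown replicate 2 was left out, with adjusted p from 0.0518 to 0.0860, and with the totals of genes other than 7SK and further small RNAs as scaling (0.0601). No other annotated gene overlaps TH1.

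Nelf-A (FBgn0038872; chromosome 3R, 21223704 to 21229512, plus strand), whose human relative contacts the polymerase with its tail, had 38.4, 42.4 and 48.3 CPM in control replicates 1, 2 and 3. It had 53.4, 56.9 and 55.7 CPM in knockdown replicates 1, 2 and 3, all above the controls. Nelf-A was not called (log2 0.36, SE 0.124; edgeR adjusted p = 0.0847). It was called higher with upper quartile scaling (adjusted p = 0.0412), with a minimum mean of 5 CPM (0.0387) and without control replicate 3 (0.0436), and with total counts only the log2 fold change was 0.02. The antisense gene lncRNA:CR44265 shares 364 of the 4648 exon bases of Nelf-A and rose from 1.21 ± 0.202 to 2.56 ± 0.389 CPM (edgeR adjusted p = 0.0296). The part of antisense reads in the Nelf-A counts was not tested.

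NELF-B (FBgn0027553; chromosome X, 7725996 to 7728361, minus strand) gave 15.1, 14.5 and 20.5 CPM in control replicates 1, 2 and 3 and 20.2, 15.7 and 19.7 CPM in knockdown replicates 1, 2 and 3. The groups overlapped fully. NELF-B was not called (log2 0.15, SE 0.181; edgeR adjusted p = 0.590; -0.21 with total counts only). Nelf-E (FBgn0017430; chromosome 3L, 8599442 to 8600879, minus strand), the subunit that binds RNA, gave 8.92, 6.47 and 9.04 CPM in control replicates 1, 2 and 3 and 6.89, 6.69 and 6.78 CPM in knockdown replicates 1, 2 and 3. Control replicate 2 lay below all knockdown libraries, and the test was not passed (log2 -0.26, SE 0.180; edgeR adjusted p = 0.341). The antisense neighbour CG43078 shares 176 of the 1227 exon bases of Nelf-E and had 0.742 to 4.01 CPM, and its part in the low Nelf-E counts was not tested.

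Within a library, the count of TH1 was lower relative to that of Nelf-A after knockdown. The log2 ratio of TH1 to Nelf-A was 0.86, 0.56 and 0.58 in control replicates 1, 2 and 3 and -0.50, -0.25 and -0.24 in knockdown replicates 1, 2 and 3. The groups did not overlap. Nelf-A has 4648 exon bases and TH1 2297, and per kb of exon TH1 stood above Nelf-A in every library, at 16.5 to 20.9 against 11.5 to 12.2 CPM per kb in the knockdown libraries. The ratio of Nelf-E to Nelf-A also did not overlap (-2.41 ± 0.303 and -3.03 ± 0.0670; SD, n = 3 each). The ratio of NELF-B to Nelf-A overlapped (-1.38 ± 0.156 and -1.59 ± 0.238). Set against Spt5, TH1 was at 0.52 ± 0.0542 in control and -0.29 ± 0.240 in knockdown libraries. How often other gene pairs separate the groups was not computed for these ratios either, and they were not tested.

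**Figure D3:**
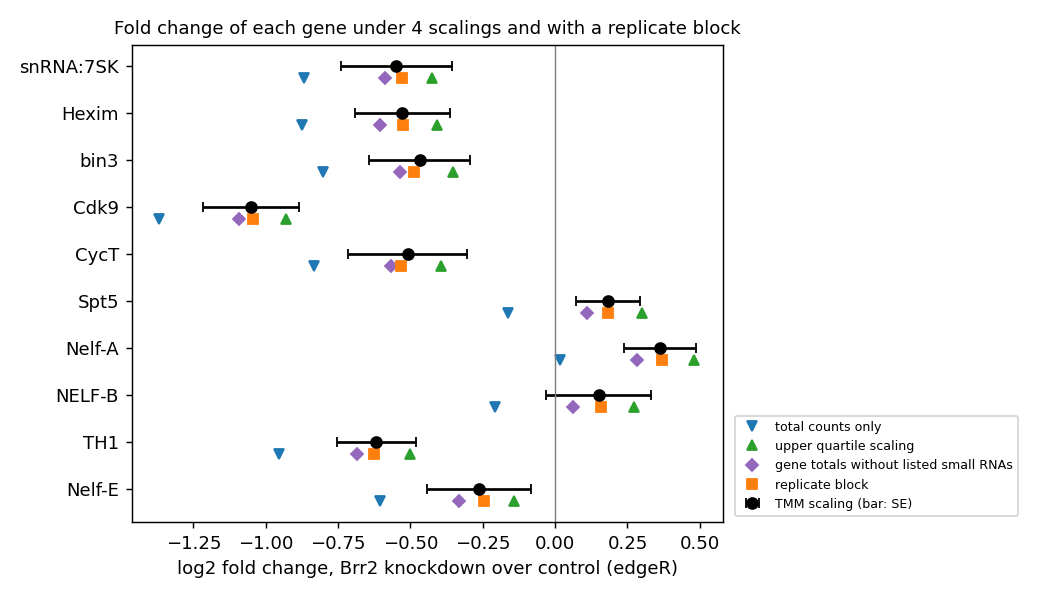
Log2 fold change of each gene, Brr2 knockdown over control, from edgeR with TMM scaling (black points, bars 1 SE), with other scalings and with a replicate block (coloured points). Cdk9 and TH1 stay below 0 throughout, whereas Spt5 and NELF-B are above 0 with TMM scaling and below 0 with total counts only, at -0.16 and -0.21.

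Per kilobase of annotated exon, 7SK stood far above the protein-coding genes, at 29019 ± 6584 CPM per kb in control libraries (SD, n = 3). TH1 came next with 29.7 ± 2.21 CPM per kb, then bin3 with 20.0 ± 1.56, Spt5 with 13.8 ± 1.02 and Cdk9 with 12.5 ± 1.83. Hexim, Nelf-A and CycT followed with 9.29 ± 1.24, 9.26 ± 1.07 and 9.16 ± 1.24 CPM per kb, NELF-B with 7.50 ± 1.47 and Nelf-E with 6.64 ± 1.18. In the control libraries the range of Cdk9 overlapped that of Spt5, and from Nelf-A downward each gene overlapped the one above it, so those neighbours are not set apart. In knockdown libraries Cdk9 stood at 6.02 ± 0.699 CPM per kb, and only Nelf-E, at 5.53 ± 0.0809, had a lower mean level; the ranges of these genes overlapped in part. The recovery of a short RNA of 444 bases relative to long mRNAs was not tested and bears on the distance of 7SK from the others.

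Of 32 genes of the wider elongation machinery 1 rose and 1 fell, or 6.25%, beside 17.7% called among all tested genes. Their median log2 fold change was 0.00. La, which binds the ends of RNA polymerase III transcripts, was measured at 170.2, 195.3 and 298.4 CPM in control replicates 1, 2 and 3 and at 494.4, 382.9 and 513.2 CPM in knockdown replicates 1, 2 and 3. It rose with a log2 fold change of 1.07 (SE 0.236; edgeR adjusted p = 0.0250), a call lost when control replicate 1 or 2 was left out, or knockdown replicate 1 or 3 (adjusted p from 0.0774 to 0.0913), with total counts only (0.109), with no filter (0.0550) and with the totals of genes other than 7SK and further small RNAs (0.0794). Larp7, the La-related protein of the human 7SK particle, had 5.54 ± 1.32 and 6.92 ± 0.717 CPM (SD, n = 3 each) and was not called (log2 0.32, edgeR adjusted p = 0.339).

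Trl encodes the GAGA factor, which binds the promoters of many genes with a paused polymerase. It had 100.9, 88.6 and 103.3 CPM in control replicates 1, 2 and 3 and 51.8, 65.9 and 59.1 CPM in knockdown replicates 1, 2 and 3. All knockdown libraries were below the controls. On the same strand CG42507 shares 4441 and Tsen34 424 of the 6254 exon bases of Trl, so the count may not belong to Trl alone. The listed count fell with a log2 fold change of -0.73 (SE 0.135; edgeR adjusted p = 0.0148), and lost the call without control replicate 1 (0.0582) or knockdown replicate 1 (0.0597) or 3 (0.0606). None of the 5 genes of the super elongation complex and BET group, the 5 of the Paf1 complex, the 5 of the Spt4, Spt6 and histone chaperone group, the 6 of the TFIIS, Elongin and TFIIF group, or the 6 other transcription kinases and phosphatase passed. Their log2 fold changes ran from -0.55, for Su(Tpl), the fly ELL, to 0.48, for Ssrp, a subunit of the histone chaperone FACT. With the replicate block Su(Tpl) was called lower (-0.56, adjusted p = 0.0429).

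Of 12 genes of RNA polymerase II subunits 1 rose and 0 fell, or 8.33%, beside 17.7% called and 8.05% called higher among all tested genes. Their median log2 fold change was 0.05. RpII215, the largest subunit and bearer of the tail that Cdk9 phosphorylates, rose from 132.1 ± 8.65 to 176.2 ± 7.58 CPM (SD, n = 3 each; log2 0.42, SE 0.115, edgeR adjusted p = 0.0490), a call at the edge of the threshold. It was lost without any 1 of the 6 libraries (adjusted p from 0.0621 to 0.154), with total counts only (0.739), with no filter (0.0797) and with the totals of genes other than 7SK and further small RNAs (0.220). The extremes of the list were Rpb8 at -0.45 (SE 0.130, edgeR adjusted p = 0.0556) and Rpb12 at 0.58 (SE 0.216, edgeR adjusted p = 0.105). With the replicate block Rpb8 was called lower (adjusted p = 0.0465), and Rpb12 (0.0175) and RpII140, the second largest subunit (0.0324), higher. Levels were also set against the mean of these 12 genes within a library. On this ratio Cdk9, TH1, Hexim, Nelf-E and 7SK were lower in all knockdown libraries than in any control library. Their mean log2 differences were -1.14, -0.71, -0.62, -0.34 and -0.62. For bin3 and CycT, at -0.58 and -0.62, the groups overlapped, as for Spt5, Nelf-A and NELF-B. The share of all genes without overlap on this ratio was not computed, so nothing is read from it. On plain CPM that share was 41.8%. The mean includes Rpb4, at 1.60 to 3.59 CPM, whose 722 exon bases are all shared with Ada2a on the same strand.

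Among 17 genes long known in flies for a polymerase paused at their start, 2 fell and 0 rose. That is 11.8%, beside 17.7% of all tested genes called and 9.63% called lower. Of the 17 log2 fold changes 16 were below 0, beside 5941 of 11590 among all tested genes. The tubulin genes betaTub56D and alphaTub84B fell (log2 -1.05, SE 0.199, and -0.91, SE 0.179; edgeR adjusted p = 0.0157 and 0.0176). Both lost the call when control replicate 2, or knockdown replicate 1 or 3, was left out, with adjusted p from 0.0519 to 0.0699, and alphaTub84B also without control replicate 1 (0.0529). Of the 12 heat shock genes 0 passed. Their median log2 fold change was -1.59, with 12 below 0, but its size varied with the fit. Without control replicate 1, and with knockdown replicate 1 kept, it was -0.09, with 10 below 0. In that fit the median of all 17 genes went from -1.35 to -0.19. With the replicate block the heat shock median was -1.04, with 12 below 0, and the median of the 17 genes -0.94. The list's lowest fold change was that of Hsp26, whose level was 697.5, 182.9 and 36.4 CPM in control replicates 1, 2 and 3 and 157.0, 45.4 and 24.7 CPM in knockdown replicates 1, 2 and 3. Its controls differed among themselves by more than the groups did (log2 -2.01, SE 1.06; edgeR adjusted p = 0.223), and without control replicate 1 its log2 fold change was -0.52 (adjusted p = 0.752). With the replicate block 6 of the 17 genes were called lower, where 14.3% of all tested genes were; those gained were Hsp26 (-1.59, adjusted p = 0.0265), Hsp23 (0.0125), Gapdh1 (0.0480) and Gapdh2 (0.0311). Hsp70 gene copies are nearly identical and may share reads. All 1900 exon bases of Hsp22 are shared with CG4456 on the same strand, so its count may not belong to Hsp22 alone. The highest fold change was that of the polyubiquitin gene Ubi-p63E (log2 0.05, edgeR adjusted p = 0.870), which turned negative with total counts only (-0.28), without control replicate 3 or knockdown replicate 1 (-0.073 each).

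**Figure D4:**
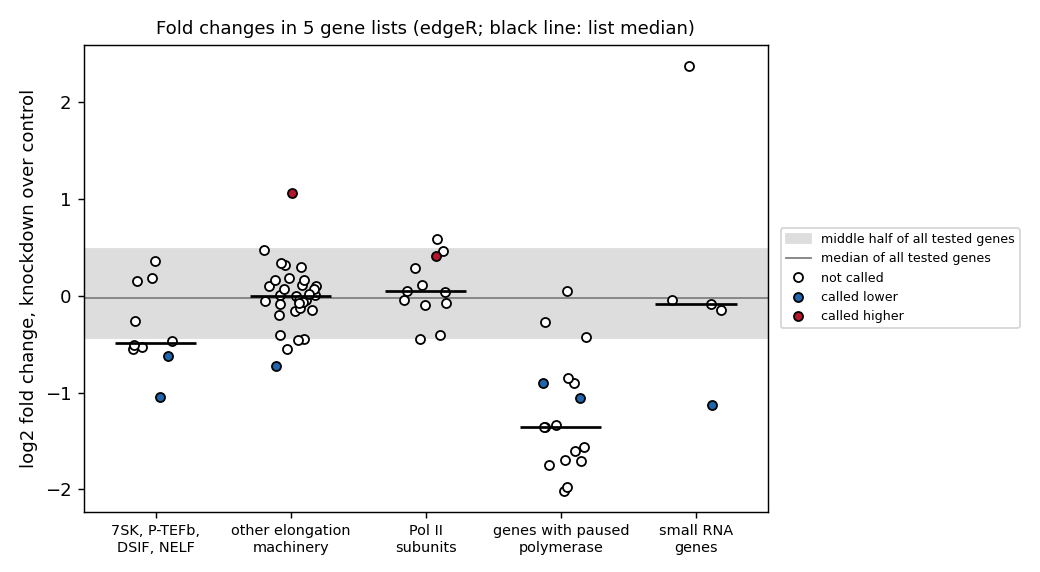
Log2 fold change (vertical axis, edgeR, knockdown over control) of each tested gene in 5 lists; filled points passed an adjusted p of 0.05, black lines are list medians, and the grey band and line give the spread and median of all tested genes. The 10 genes of the 7SK, P-TEFb, DSIF and NELF set have a median of -0.49, against 0.00 for 32 other elongation genes and 0.05 for 12 polymerase subunits.

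The 7SK RNA was set beside 8 other short noncoding RNA genes whose vertebrate relatives are made by RNA polymerase III, of which 5 passed the filter. RNaseP:RNA, the RNA of the tRNA-processing enzyme RNase P, fell from 1363 ± 134 to 624.4 ± 26.7 CPM (SD, n = 3 each; log2 -1.13, SE 0.134, edgeR adjusted p = 0.00474). In the fly annotation it lies in an intron of ATPsynC, on the same strand and with no shared exon bases, which itself did not pass (log2 -0.50, SE 0.213; edgeR adjusted p = 0.147). RNaseMRP:RNA and the copies 7SLRNA:CR32864 and 7SLRNA:CR42652 had log2 fold changes of -0.04, -0.15 and -0.08 and did not pass. The 7SL copies held nearly equal counts and may share reads. Control replicate 3 stood apart there, at 17583 CPM for 7SLRNA:CR32864 against 8953 to 11826 CPM in the other 5 libraries. The U6 copy snRNA:U6:96Aa was at or below 0.486 CPM in every library (log2 2.38, SE 0.737; edgeR adjusted p = 0.0661), and was called higher with the replicate block (adjusted p = 0.0492) and by DESeq2 (0.0352).

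Over the 6 libraries, the genes whose pattern lay nearest to that of snRNA:7SK were RpS12, Blos2, CG13876, Vps60 and Tsp42Ee. Likeness was the root mean square difference of log2 CPM, centred on each gene's mean, among 6540 genes that averaged 5 CPM or more, and these 5 had values of 0.046 to 0.095. RpS12, a ribosomal protein gene, had 1355, 979.7 and 973.7 CPM in control replicates 1, 2 and 3 and 740.8, 687.3 and 779.7 CPM in knockdown replicates 1, 2 and 3. Like 7SK it was highest in control replicate 1 and lowest in knockdown replicate 2, a likeness that follows from how it was picked.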

How the data were processed

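Per the labels' protocols, total RNA of S2 cells was depleted of rRNA and made into libraries with a kit named for ribosome profiling. Trimmomatic, TopHat2 and build BDGP6 are named, without versions, in the submitters' processing notes. The table the authors deposited holds estimated counts per gene and transposon copy, as whole numbers not scaled between libraries; for the counting tool, its use of strand and its treatment of reads with several hits, the sources used here give nothing. Totals of 127654975 to 147620403 make spread between libraries, not counting error, the limit for these genes. The labels do not say whether replicates are separate cultures. The p-values set the group difference against the spread between these libraries. That spread may be technical, so the p-values may not extend to new cultures.

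Differential abundance was tested over all features in edgeR 4.0.16 (R 4.3.3), by glmQLFit and glmQLFTest after TMM scaling and the filterByExpr filter, 2-sided and with no replicate block, and adjusted by Benjamini-Hochberg. The function was tested on simulated data. Standard errors were the size of the log2 fold change divided by √F. Positions, exon lengths and overlaps came from Ensembl release 115 (BDGP6.54, whereas the notes give only BDGP6), matched by gene ID. The gene given as HEXIM was matched to the row Hexim by its ID. Members and lists were chosen with earlier results of these data known. Named genes were the 10 members, the genes called in each other list with the lowest and highest of each list, and the 5 nearest to snRNA:7SK; spt4, Larp7, Su(Tpl), Ssrp, RpII140, Hsp23, Gapdh1, Gapdh2, RNaseMRP:RNA and the 7SL copies were added after their values were seen.

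Replicate numbers are shared by the groups. Deviations from the group means, over 14167 features, correlated at 0.16 to 0.317 for same-numbered libraries and at -0.229 to 0.051 for the rest. The deviations within a group sum to 0, so these correlations are not independent and do not settle that the libraries are paired. The labels do not state a pairing. The numbers were taken as possible pairs, and the fit with a replicate block is given wherever a call of a named gene changed with it. Within each group every pair of libraries differed beyond sampling noise (chi-square over its degrees of freedom, 103.3 to 1442). Alternatives were total counts only, upper quartile scaling, DESeq2 1.42.0, limma 3.58.1 (voom), no filter, a minimum of 5 CPM, genes only, the replicate block and leaving out each library; totals of genes other than 7SK and the listed small RNAs, as a scaling, were chosen after seeing the data.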

Additional observations from a re-analysis of the deposited data

How the results depend on the processing

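Brr2 kept its call in every alternative run. The 10 genes of the set had 2 calls, both lower, as reported and with no filter, genes only and limma voom; the totals without the listed small RNAs also gave 2, which were Cdk9 and snRNA:7SK, with TH1 lost (adjusted p = 0.0601). Total counts only, which shifted the median gene by -0.34 (log2), gave 6 (29% of all genes called), DESeq2 gave 4 (28.8%) and the replicate block gave 4 (25.6%); upper quartile scaling, which shifted it by 0.12, and a minimum of 5 CPM gave 3, of which Nelf-A was higher. Leaving out 1 library gave 1 to 4. Directions turned for Spt5 and NELF-B with total counts only (-0.16 and -0.21) and for Ubi-p63E with total counts only (-0.28) and without control replicate 3 or knockdown replicate 1 (-0.073 each, within -0.073 to 0.16 over the 6 libraries left out in turn); none passed.

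Over all features 2385 of 14167 were called (16.8%). Total counts only gave 3868, the replicate block 3456, upper quartile scaling 2385 and limma voom 2454, each of 14167. No filter gave 1470 of 21214, a minimum of 5 CPM 1823 of 7238 and genes only 2121 of 11784. DESeq2 gave 3715 of 13337, and the totals without listed small RNAs 1826 of 14225. With 1 library left out the counts ran from 761 of 14858 to 2250 of 14752. Calls in the set and the lists stand beside these counts, and nothing is read from them. Calls among the 32 elongation genes went from 2 to 6 with total counts only, to 1 with no filter and to 1 with the totals without listed small RNAs, to 3 with the replicate block and to 0 to 3 with 1 library left out. Those among 12 polymerase subunits went from 1 to 2 with upper quartile scaling, a minimum of 5 CPM, genes only or limma voom, to 3 by DESeq2, to 4 with the replicate block, and to 0 with no filter, with the totals without listed small RNAs, and with any 1 library left out. Those among 17 genes with a paused polymerase went from 2 to 5 with total counts only, to 6 with the replicate block and to 0 to 3 with 1 library left out, and those among small RNA genes from 1 to 2 with the replicate block and DESeq2. With 1 library left out fewer samples entered each fit; the cause of the other changes was not tested.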
